A study of Mus musculus with 12 samples.

Results

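The muscle miRNAs miR-1, miR-133a, miR-133b and miR-206 were followed through 12 small RNA libraries from mouse hippocampus. They are 4 of the 1087 named miRNAs whose hairpins were searched (GENCODE release M21). Their reads were selected on sequence: a tag, that is a distinct insert sequence of at least 18 nt, was counted when all of it matched the hairpin of a member exactly. The set itself was chosen by its counts in these libraries, so the total levels given here are a description and carry no test. Of 55 distinct tags that matched a member, 4 matched both miR-133a and miR-133b and were kept apart, none matched both miR-1 and miR-206, and none matched a miRNA outside the set.

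Each library was made from the hippocampus of an individual adult male mouse of the C57BL/6NCrl strain. The 2 untreated mice (NT) received no shock. The other mice received an electroconvulsive shock (ECS), a brief current through the head that fires neurons across the brain and evokes a seizure, and 2 of them were taken at every time of 0.5, 1, 3, 6 or 24 h. The 6 libraries with the suffix -1 form the first time course and the 6 with the suffix -2 the second, so that each time was measured once per time course. Total RNA was extracted with Trizol, size selected by gel electrophoresis and cloned with an Illumina small RNA kit.

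Vertebrate miRNAs guide repressor complexes to messenger RNAs mainly through their seed, the bases 2 to 8 from the 5′ end. miR-1, miR-133 and miR-206 are the best known miRNAs of striated muscle, where myogenic transcription factors switch them on: miR-1 and miR-133a are made from common precursor transcripts in heart and skeletal muscle, and miR-206 and miR-133b from another in skeletal muscle. miR-1 and miR-206 form one seed family that promotes muscle differentiation, and miR-133a and miR-133b form another that is known for effects on myoblast proliferation.

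The sequences show how closely the members resemble each other, and at which bases a tag can tell them apart. Capitals mark the seed, and the mature sequences are those of RefSeq on GRCm38.p6.
miR-206-3p, chr1:20679055-20679076, plus strand: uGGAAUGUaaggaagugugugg
miR-133b-3p, chr1:20682834-20682855, plus strand: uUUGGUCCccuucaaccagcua
The 3′ arm of miR-1 has the same seed GGAAUGU as miR-206 and differs from it at 4 of 22 positions, the first of them at position 11. The 3′ arm of miR-133a shares the seed UUGGUCC with miR-133b and differs from it only at position 22 of 22, so a tag cut short before that base cannot be assigned to one of the pair.

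On chromosome 1 the hairpin genes Mir206 (20679010 to 20679082) and Mir133b (20682769 to 20682887) lie 3686 bp apart on the plus strand, inside the long noncoding RNA gene Gm28653 (20669882 to 20684298). Mir133b lies within the last exon of the spliced Gm28653 transcript, and Mir206 lies in the intron before it, where it also overlaps the start of a second, unspliced Gm28653 transcript. On chromosome 2 the genes Mir1a-1 (180389048 to 180389124) and Mir133a-2 (180398379 to 180398482) lie 9254 bp apart on the plus strand. miR-1 and miR-133a have a further hairpin gene each, Mir1a-2 and Mir133a-1, whose reads are pooled with these. Coordinates are those of GRCm38.

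Together the members took 319367 reads, 1.06% of the 30022027 miRNA reads of the 12 libraries, and miR-1 supplied 98.3% of them. miR-1 had 313989 reads, miR-206 had 5285, miR-133a had 84, and the tags common to miR-133a and miR-133b had 9. No read matched miR-133b alone, for which a floor of 3 counts is 0.0999 reads per 1000000 miRNA reads (RPM) over the 12 libraries. The 9 shared reads (0.300 RPM) may also come from miR-133b, so its level may be above that floor. miRNA reads ran from 439336 (6h-1) to 4282006 (NT-2) per library, with a median of 1431381.5 in the first time course and 4015613 in the second, so low counts are better measured in the second. The miRNAs that define neurons were abundant in every library but varied. miR-124 ran from 10205 RPM (in 3h-2) to 261928 RPM, miR-9 from 5972 to 28482 and miR-128 from 26758 to 88783.

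**Figure D1:**
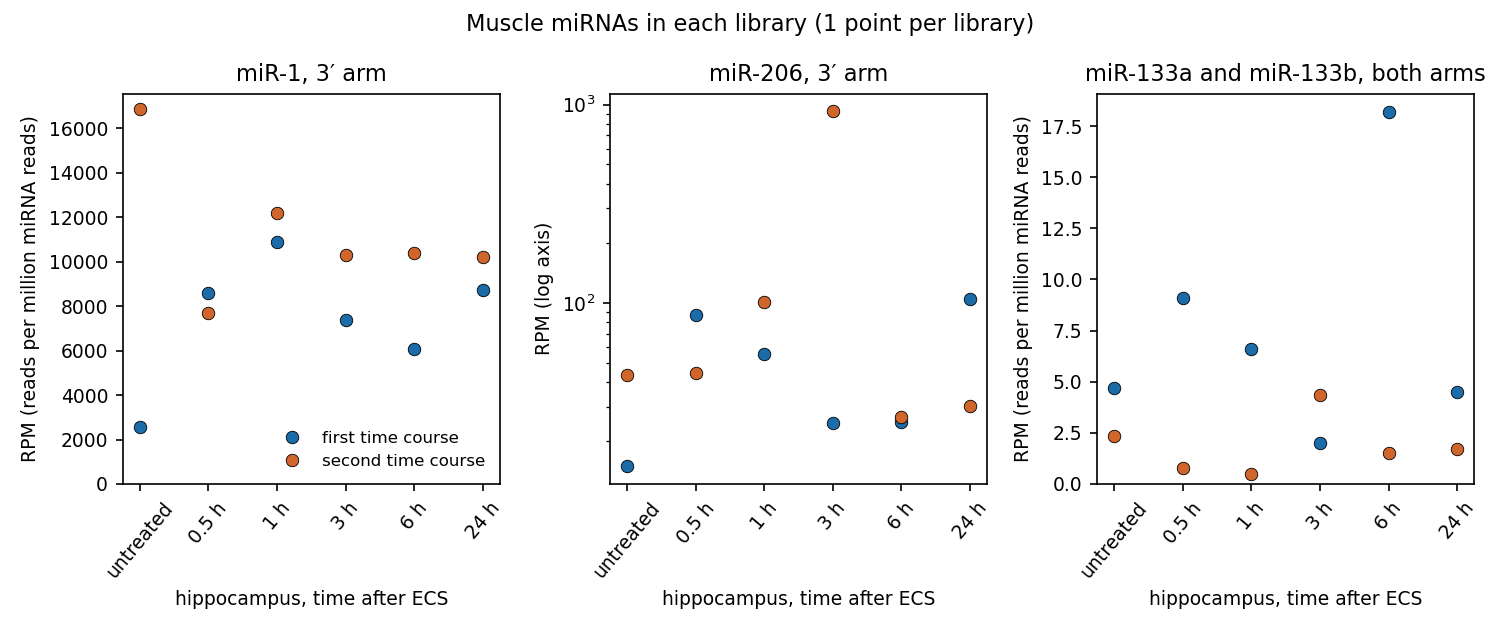
RPM of the 3′ arm of miR-1 (left, linear axis), the 3′ arm of miR-206 (centre, log axis) and all miR-133a and miR-133b reads (right, linear axis) at each time after ECS, 1 point per library. miR-1 lay between 2563 and 16848 RPM with both extremes in untreated mice, miR-206 reached 927 RPM in the second 3 h library, and miR-133 stayed at or under 18.2 RPM.

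miR-1, the most abundant miRNA of heart and skeletal muscle, was among the abundant miRNAs of these hippocampal libraries. Its 3′ arm had a mean of 9319 ± 3489 RPM (SD, n = 12) and stood at rank 21 of the 1065 miRNA arms with reads. In the first time course its 3′ arm was at 2563 RPM in the untreated mouse, and at 8610, 10902, 7367, 6064 and 8730 RPM in the order 0.5, 1, 3, 6, 24 h. In the second it was at 16848 RPM in the untreated mouse and at 7668, 12178, 10297, 10388 and 10218 RPM at the same times. Per miRNA read the untreated libraries were thus the lowest and the highest of all 12. Per 1000000 accepted reads NT-2 was still the highest (9524), but the lowest was 6h-1 (611), below NT-1 (745).

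Seen against the untreated mouse of its own time course, miR-1 was higher at all 5 times in the first time course, by 2.37-fold to 4.25-fold, and lower at all 5 times in the second, at 0.455 to 0.723 of the untreated level. Per accepted read the second time course kept this pattern (0.410 to 0.760), but the first did not, since 6h-1 was at 0.820 of its untreated library while the other 4 were 3.02-fold to 3.83-fold above it. Per miRNA read, opposite directions of this kind were seen in 35 of 469 arms (7.46%), and the difference between the time courses was not tested. Each ratio rests on 1 untreated library. In NT-1, 51.4% of the miRNA reads were only 18 or 19 nt long, against 0.910% to 16.9% in the other libraries, and the part of this in the level of miR-1 was not tested.

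Across both time courses no change of miR-1 after ECS passed the test. In edgeR's quasi-likelihood test over 469 arms, adjusted after Benjamini and Hochberg, its log2 fold changes were -0.38, -0.16, 0.26, 0.01 and 0.21 from the earliest time to the latest, with a standard error of 1.12 at 0.5 h and adjusted p of 0.988 or more. At every time the sign turned under at least one other scaling, counting or block setting. It also turned on the untreated library used: without NT-1 the value was -1.21 at 0.5 h, and without NT-2 it was 2.18. The share of all arms called was 0.0% at each of the 5 times, so the absence of calls among the 3 member arms tested (the 3′ arms of miR-1 and miR-206 and the 5′ arm of miR-133a) is the same as for every other arm. This fit had no block for the time course, and with the block the standard error of miR-1 at 0.5 h was 0.84. With 2 libraries per group and standard errors of this size, differences of a few fold in miR-1 were not detectable.

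miR-206, a miRNA made chiefly in skeletal muscle, was present at a level far below that of miR-1, but in every library. Its 3′ arm stood at rank 168, with 5285 reads, and its 5′ arm had none. The 3 most frequent tags show how the reads were cut at the 3′ end, with the seed in capitals as DNA letters, and are printed because they carry nearly the whole count.
miR-206 tag of 20 nt, 3167 reads: tGGAATGTaaggaagtgtgt
miR-206 tag of 22 nt, 1605 reads: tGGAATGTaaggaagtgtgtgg
miR-206 tag of 21 nt, 385 reads: tGGAATGTaaggaagtgtgtg
All 3 begin at the annotated 5′ end, as did 99.6% of the reads of this arm, and they differ only in the last bases.

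In the first time course miR-206 was at 15.0 RPM in the untreated mouse (16 reads) and at 86.6, 55.1, 24.6, 25.0 and 105 RPM from 0.5 h to 24 h. In the second it was at 43.4 RPM in the untreated mouse (186 reads) and at 44.4, 101, 927, 26.5 and 30.2 RPM at the same times. The library 3h-2, with 3845 reads, held most of the miR-206 reads of the study and was 8.83-fold above the next highest library. The other 11 libraries spanned 15.0 to 105 RPM, with the time courses overlapping.

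The 3 h time is therefore where the replicates of miR-206 disagreed most. Relative to its own untreated mouse, miR-206 was 1.64-fold higher at 3 h in the first time course and 21.3-fold higher in the second. The log2 fold change over both was 4.61 (SE 1.64), with an unadjusted p of 0.0150 and an adjusted p of 0.999 in edgeR's quasi-likelihood test. It was -0.20 (SE 1.28, adjusted p 0.961) without the library 3h-2. The one setting that called it, DESeq2 with the time course as a block, which was added after the data were seen, gave 4.21 with an adjusted p of 0.0151, and this value also includes the library 3h-2. DESeq2 without the block gave an adjusted p of 0.0786. At 0.5, 1, 6 and 24 h the log2 fold changes of miR-206 were 1.07, 1.18, 0.03 and 1.38, with adjusted p of 0.988 or more by edgeR.

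**Figure D2:**
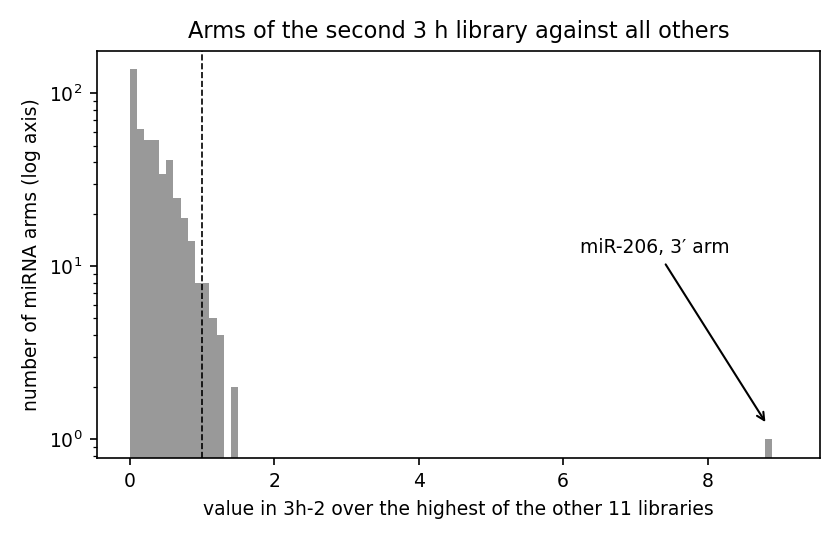
Histogram over 469 miRNA arms of the RPM in the library 3h-2 divided by the highest RPM among the other libraries (x axis, ratio), with the number of arms on a log y axis and a dashed line at a ratio of 1. miR-206 stands alone at 8.83, and the next arm, the 5′ arm of miR-451a, is at 1.43.

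Among the 469 arms, miR-206 was the only one that exceeded all other libraries at least 5-fold in 3h-2, while NT-1 held 7 such arms, 3h-1 held 6, 6h-2 held 1 and the other 8 libraries none. miR-133, counted over both genes and arms, was also highest of its time course there, at 4.34 RPM (18 reads). The other 5 libraries of that time course had 0.510 to 2.34 RPM. In the first time course, however, only 3h-1 (2.00 RPM) was lower than 3h-2. The rest of the first ran from 4.50 RPM (24h-1) to 18.2 RPM (6h-1). miR-1 was at 10297 RPM, in the range of its time course, and miR-486 was at 128 RPM within 27.2 to 159 RPM over all libraries. The list of other muscle miRNAs (miR-208a, miR-208b, miR-499 and miR-486) summed to 153 RPM in 3h-2, most of it from miR-486. This sum ran from 80.8 to 169 RPM over its time course and from 45.0 to 170 RPM in the first. Within this list the heart miRNA miR-208a had no reads and miR-208b had 18, while miR-499, a miRNA of slow and cardiac muscle, ran from 0 to 67.4 RPM. Outside muscle, the neuronal miR-124 (10205 RPM) and the blood miRNA miR-142a (157 RPM) were at their lowest of all libraries in 3h-2. The blood miRNA miR-451a was at its highest there (103 RPM), while miR-9, miR-128, miR-144 and miR-223 lay inside their ranges. The source of the high miR-206 count in 1 mouse was not tested.

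The miR-206 reads of 3h-2 were not the copies of a single tag. The 3845 miR-206 reads of 3h-2 comprised 13 distinct tags, of which the most frequent held 56.9%. The other libraries of that time course had 35 to 398 reads and 4 to 8 distinct tags, the most frequent holding 53.2% to 62.9%. The number of distinct tags depends on the reads, and these values do not show where the reads came from. In relation to miR-1, there were 90.0 reads of miR-206 per 1000 of miR-1 in 3h-2. The other 11 libraries held between 2.55 (6h-2) and 12.02 (24h-1) per 1000. Without 3h-2 the mean of miR-206 fell from 124 to 50.7 RPM.

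The miR-133 family, partner of the other members on the same precursors, was close to the detection floor in these libraries. The 5′ arm of miR-133a, the passenger strand of the annotated hairpin, had 72 reads and its 3′ arm, the usual guide, had 12. In the first time course the 5′ arm had 5, 15, 7, 2, 8 and 10 reads from the untreated mouse to 24 h. In the second it had 7, 3, 2, 10, 0 and 3. After ECS its log2 fold changes ran from -0.59 (1 h) to 1.37 (6 h), with standard errors of 1.74 to 1.81 and none past the threshold in edgeR. Over all libraries 85.7% of miR-133a reads came from the 5′ arm (Wilson 95% interval 76.7% to 91.6%, counting error only), or 77.4% when the shared 3′ tags are counted too. The share differed between the time courses, with 47 of 48 reads (97.9%, or 92.2% with shared tags) in the first and 25 of 36 (69.4%, or 59.5%) in the second, a difference that was not tested. With shared tags counted, the 3′ arm had more reads than the 5′ arm in 6h-2 (2 against 0) and 24h-2 (4 against 3).

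The 3′ arm of miR-133a had 5 of its 12 reads in 3h-2, and the shared 3′ tags had 3 of 9 there. Of those 12 reads, 7 began 1 base later than the other 5, which moves the seed from UUGGUCC to UGGUCCC. To see whether exact matching had missed the 3′ arm, tags were searched for the 12 bases at positions 5 to 16 of miR-133b-3p, which miR-133a shares. This found 24 reads, against the 21 counted by exact match over miR-133a and the shared tags, so reads with changed ends added 3.

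In each library miR-1 was above miR-206 and miR-206 above miR-133. The second step of this order was wide in most libraries, but in 6h-1 it rested on 11 reads of miR-206 against 8 of miR-133, which counting error alone can produce. Over all libraries miR-1 had 3738 times the reads of miR-133a, or 3376 times when the shared tags are added to miR-133a. miR-206 had 1762 times the 3-count floor of tags of miR-133b alone. It had 587 times the reads of the shared tags, which may also come from miR-133b. All of these are tags of like length, so no length scaling enters, but the cloning efficiency of each sequence was not measured.

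**Figure D3:**
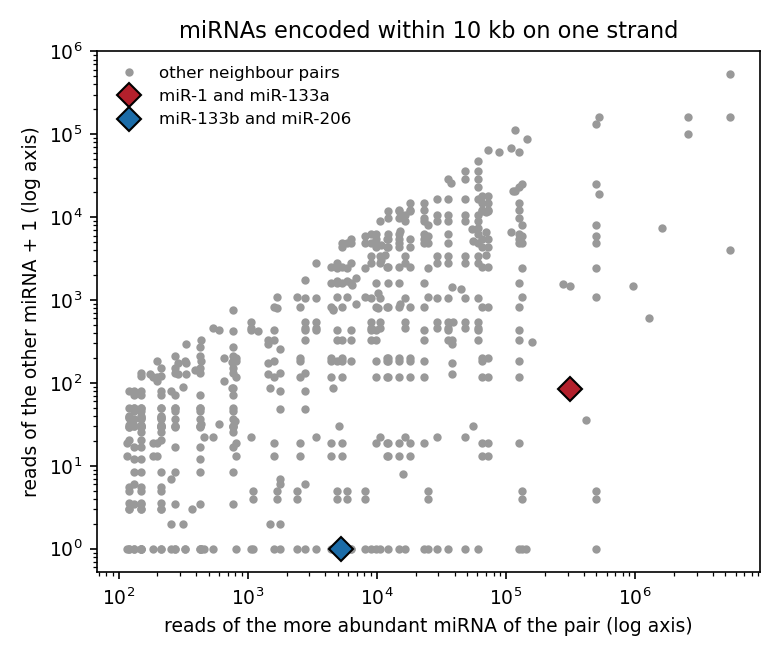
Reads over 12 libraries of the more abundant (x axis, log) and the less abundant miRNA plus 1 (y axis, log) of each of 594 pairs of miRNAs encoded within 10000 bp on one strand. The pair miR-1 and miR-133a (red diamond, 313989 and 84 reads) and the pair miR-206 and miR-133b (blue diamond, 5285 and 0 reads) lie near the lower edge. Tags shared by miR-133a and miR-133b are left out of both pairs.

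To place these ratios, all miRNAs encoded within 10000 bp of each other on one strand were paired when the more abundant had at least 100 reads. The 594 pairs had a median ratio of 13.7, and 58 of them (9.76%) exceeded 1000. The pair miR-1 and miR-133a stood at rank 25 and the pair miR-206 and miR-133b, at its lower bound, at rank 42. The reads of miR-1 and miR-133a were pooled over all their hairpin genes, and the gap recorded for that pair was 2504 bp. Pairs of one cluster recur among the 594, which are therefore not independent of each other. In bulk tissue, fewer cells of a type and less RNA per cell cannot be told apart, for these ratios as for the levels.

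The 2 time courses differed in many miRNAs, and the members were compared between them within time points. By edgeR's quasi-likelihood test with the same adjustment, 32.4% of the 469 arms were called (94 higher and 58 lower in the second), and 0 of the 3 member arms. Before adjustment, 215 arms had a p under 0.05. The direction of a count depends on the scaling, since dividing by total miRNA reads instead gave 49 higher and 113 lower and moved the median arm from 0.29 to -0.30 on the log2 scale.

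**Figure D4:**
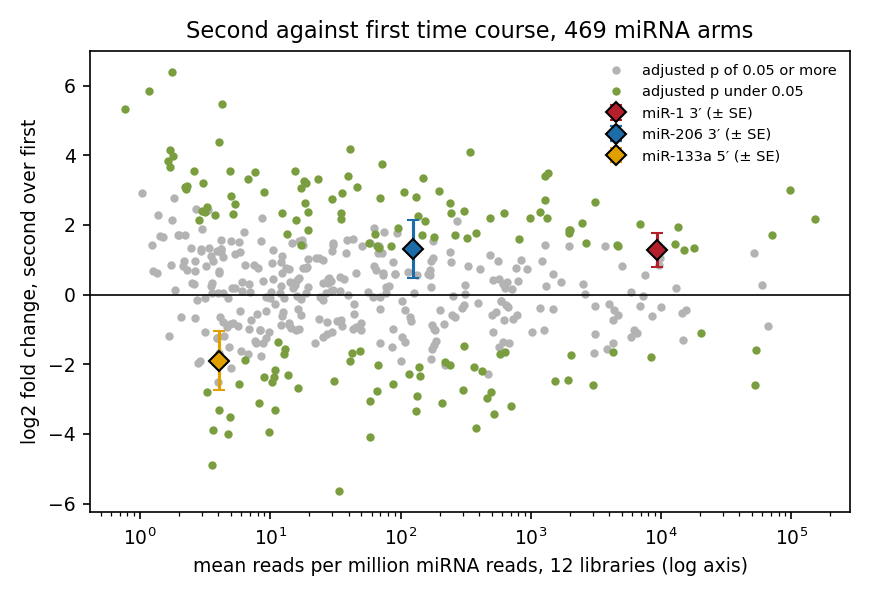
Mean RPM over 12 libraries (x axis, log) against the log2 fold change of the second over the first time course (y axis) for 469 miRNA arms, with those of adjusted p under 0.05 in green and the 3 member arms as diamonds with their standard error. miR-1 (1.28) and miR-206 (1.30) lie above 0 and the 5′ arm of miR-133a (-1.89) below, none of them past the threshold.

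Between the first time course and the second, the mean of the 3′ arm of miR-1 went from 7372 ± 2852 to 11266 ± 3090 RPM (SD, n = 6 each), with overlapping libraries. Its log2 fold change was 1.28 (SE 0.49, adjusted p 0.0606 by edgeR), and 0.66 (adjusted p 0.270) when scaled to total miRNA reads. DESeq2 called it at 1.23 with an adjusted p of 0.0206.

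The 5′ arm of miR-133a went the other way, from 7.07 ± 5.92 to 1.01 ± 0.867 RPM (SD, n = 6 each). Its log2 fold change was -1.89 (SE 0.84, adjusted p 0.0917 by edgeR). It was called with total scaling (-2.49, adjusted p 0.0347) and by DESeq2 (-2.03, adjusted p 0.0306), on counts of at most 15 reads per library. miR-206 had a log2 fold change of 1.30 (SE 0.83, adjusted p 0.233 by edgeR), which was 0.47 (adjusted p 0.576) without 3h-2. Its medians were 40.1 RPM in the first time course and 43.9 RPM in the second. The arms too rare for the fit were compared by an exact permutation test (two-sided, 64 flips within time points, smallest p 0.03125 when every time has reads). The exact permutation test gave p = 0.1875 for the 3′ arm of miR-133a and 1.0 for the shared tags. For the 5′ arm of miR-1 (3 reads in 2 libraries) the exact permutation test gave p = 0.5, the lowest value those reads allow. Each of these arms had no reads in either time course at 1 or more times, where a flip changes nothing. None of them could therefore reach 0.03125 or fall under 0.05, so the test cannot decide whether they differed between the time courses.

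Of 24 arms in the lists of tissue miRNAs, 5 (20.8%) were called between the time courses, against 32.4% of all arms. Of 6 arms of vessel wall and endothelial miRNAs tested, 2 were lower in the second time course, with miR-143, a smooth muscle miRNA, at 95160 ± 36859 RPM against 10598 ± 4728 RPM (SD, n = 6 each). The endothelial miR-126a had a log2 fold change of 1.30 in its 3′ arm and -1.21 in its 5′ arm, neither past the threshold. Of 4 blood arms 2 were lower, of 5 arms of liver, pancreas and epithelial miRNAs 1 was higher, and of 6 neuronal arms and 3 arms of other muscle miRNAs none was called. After ECS no arm of these lists was called at any time. The liver miRNA miR-122 ran from 9.10 to 321 RPM, miR-205 of epithelia had no reads and the pancreas miRNA miR-216a had 2. The share of muscle, vessel or blood cells in the dissected tissue was not measured, and its part in the levels of the members was not tested.

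**Figure D5:**
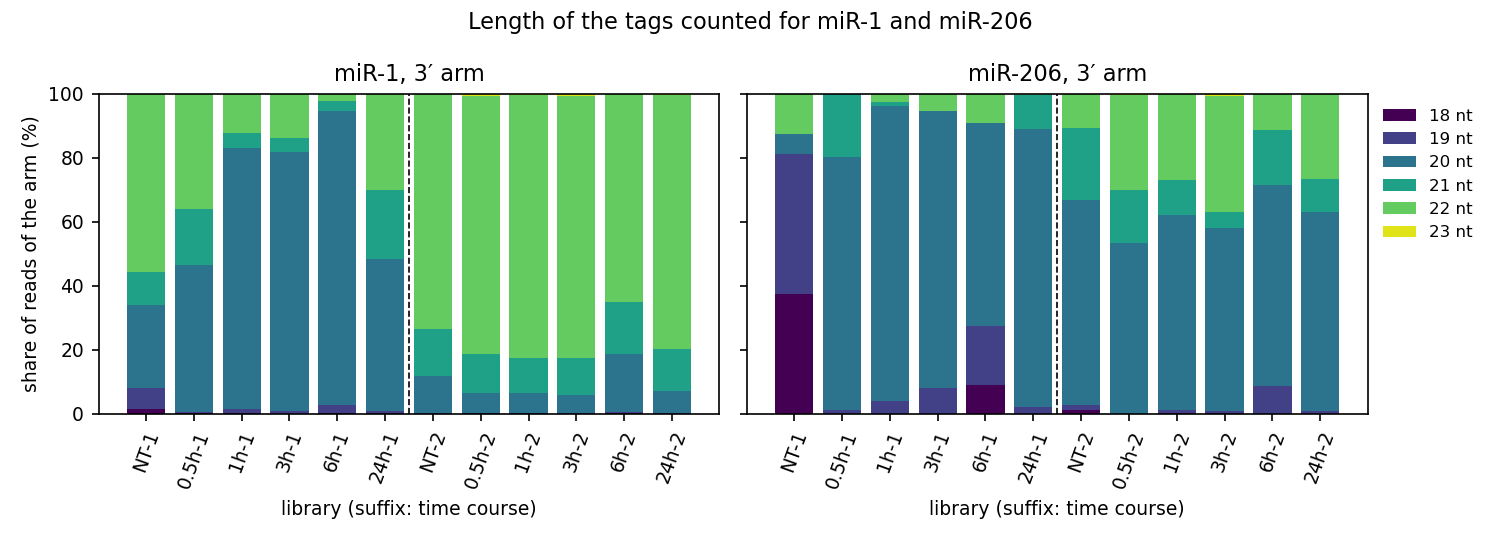
Share of reads (y axis, %) by tag length from 18 to 23 nt for the 3′ arms of miR-1 (left) and miR-206 (right) in each library, the first time course to the left of the dashed line. In miR-1 the 22 nt share was 2.48% to 55.5% in the first time course and 65.0% to 82.0% in the second, while miR-206 was mostly 20 nt in all libraries but NT-1.

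The 3′ ends of miR-1 differed between the time courses more plainly than its level. Tags of 22 nt made up 25.0 ± 19.4% of miR-1 in the first time course and 77.0 ± 6.66% in the second (SD, n = 6 each), with no overlap between libraries. Tags of 20 nt made up 62.2 ± 26.1% and 9.03 ± 4.89%. The same shift ran through the libraries as a whole: 59 of 111 arms with at least 100 reads in every library (53.2%) had a higher 22 nt share in every library of the second time course, and none had a lower one. In the reads of all other miRNAs the 22 nt share was 7.11 ± 4.65% in the first time course and 36.7 ± 5.70% in the second.

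miR-206 was shorter than miR-1 in the same libraries. In the second time course 60.0 ± 4.09% (SD, n = 6) of its reads were 20 nt and 23.5 ± 10.2% were 22 nt, the latter highest in 3h-2 at 36.0%. In the first time course the 20 nt share was 69.0 ± 32.3%, the wide spread coming from NT-1, where 1 of 16 reads was 20 nt.

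The 5′ ends, which set the seed, were far more uniform. For miR-1, 99.9% of reads of the 3′ arm began at one position, and for the 5′ arm of miR-133a 60 of 72 (83.3%) did. Reads that began as the mature miRNA but ended in bases outside the hairpin sequence were counted separately. Of the miR-1 reads 92.9% matched the hairpin to the end, 2.61% ended in a single added C and 2.08% in a single added A. Of the miR-206 reads 80.6% matched to the end and 3.52% carried a single added A. A larger share, 13.5%, departed from the hairpin by more than the last base, against 2.26% of the miR-1 reads.

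Likeness between miRNAs was described by Pearson's r of log2 (RPM + 1) after removing the mean of each time course, over 12 libraries and 210 arms with at least 10 reads in each library. These values share libraries, depth and scaling and carry no test. Nearest to miR-1 were the 3′ arm of miR-128 (r = 0.84), the 5′ arm of miR-379 (0.82) and the 5′ arm of miR-99b (0.82). Nearest to the 5′ arm of miR-133a were the 5′ arm of miR-541 (0.74), the 3′ arm of miR-3068 (0.72) and the 3′ arm of miR-665 (0.71). Nearest to miR-206 were the 5′ arms of miR-100 (0.75), miR-9 (0.67, or 0.51 without 3h-2) and miR-99b (0.66).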

How the data were processed

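Small RNA of 18 to 24 nt from 12 hippocampi was sequenced on an Illumina Genome Analyzer IIx. Per the file contents, each library was deposited as a list of its distinct inserts with raw counts, trimmed of adapter by the authors and not normalized. The aligner steps of the study were not used here. Accepted reads ran from 1897490 to 7657222 per library (70809892 in all).

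Tags were matched over their full length to 1174 miRNA hairpin transcripts (1087 names) of GENCODE M21 and counted per arm, with tags of several non-member miRNAs split equally. Exact matching loses reads with sequencing errors or added 3′ bases. PCR copies carry no molecular identifier, and intervals and floors therefore cover counting error only.

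Arms that reached 10 counts in 2 or more libraries were fitted across all libraries with edgeR 4.0.16 (quasi-likelihood test, TMM scaling, Benjamini-Hochberg adjustment, threshold 0.05) in R 4.3.3. DESeq2 1.42.0, other scaling, no filter, matching by the first 18 nt, unambiguous tags and leaving out each library were alternatives. Fits were tested on simulated data. Python 3.11.15 did the counting.

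Replicate numbers mark the time courses, according to the study. Libraries of the same number deviated together from their group means (mean r = 0.511 over 15 pairs of groups, 0.301 to 0.790). They come from different mice, and the time course entered the fits after ECS as a block only in alternatives. In the main fits after ECS, which had no block, p-values measure the spread between single mice with the difference between time courses included.

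The text names every arm of the members, the listed tissue miRNAs (other muscle, vessel, blood, other organs, neurons) and the 3 arms most like each member arm. Other names were chosen after values were seen. The members and lists were chosen with earlier results of these data known. Coordinates are of GRCm38, not of the assembly the study mapped to.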

Additional observations from a re-analysis of the deposited data

Results flagged for a closer look

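Dixon's test was applied to 18 groups of 6 libraries and singled out 3 values. At 1 in 20 groups, 0.9 would be singled out if the groups were independent and chosen without their values. Neither holds, since the groups share reads and the set was chosen by its counts, so the flags are a description. In the second time course miR-206 was at 927 RPM in 3h-2, against 26.5 to 101 RPM in the other 5 libraries. Its ratio to miR-1 in the same library was 90.0 per 1000 reads, against 2.55 to 8.33, so these 2 values rest on the same reads. In the first time course 6.25% of the miR-206 reads of NT-1 (1 of 16) were 20 nt, against 63.6% to 92.0% in the other 5 libraries.

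Against the 1 untreated library of its own time course, miR-1 lay on opposite sides after ECS. Per miRNA read those untreated libraries were the lowest (NT-1, 2563 RPM) and the highest (NT-2, 16848 RPM) of all 12. The libraries after ECS ran from 6064 to 10902 RPM in the first time course and from 7668 to 12178 RPM in the second. The mean of the 5 libraries after ECS was 3.25 times the untreated level in the first and 0.602 times in the second, and all 5 libraries lay on the same side each time when counted per miRNA read. Per accepted read, 6h-1 lay below its untreated library (0.820), against the other 4 of the first time course. The difference was not tested.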

How the results depend on the processing

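Between the time courses no member arm changed direction under the alternatives run, whereas most of the small differences after ECS did. After ECS, the 0 calls among all arms became 1 at 0.5 h and 2 at 3 h with DESeq2 and 1 at 3 h without the filter on low counts. With DESeq2 and the replicate block together, chosen after seeing the data, there were 2 at 0.5 h, 5 at 3 h and 3 at 6 h. With the replicate block in edgeR 0 arms were called at each time (26, 12, 24, 32 and 24 at an unadjusted p under 0.05, from the earliest time to the latest, against 9, 2, 10, 9 and 7 without it). For miR-206 at 3 h the block gave a log2 fold change of 4.32 (adjusted p 0.746), and edgeR's block changed no call of a member. DESeq2 with the block called it at 4.21.

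Between time courses, edgeR called 152 arms, and between 92 (without 1h-1) and 157 when 1 library was left out. Without the block for time point, the log2 fold changes past the threshold were 1.18 for miR-1 (adjusted p 0.0306), 2.61 for miR-206 (0.0365) and -1.86 for the 5′ arm of miR-133a (0.0394). DESeq2 gave 1.23 for miR-1 and -2.03 for the 5′ arm of miR-133a, and total scaling gave -2.49 for the latter. Leaving out 1 library gave 0.88 to 1.54 for miR-1 (called in 1 of 12), -2.63 to -1.49 for the 5′ arm of miR-133a (called in 2) and 0.47 to 1.89 for miR-206 (called in 0). At each time after ECS the count stayed between 0 and 0.

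After ECS the log2 fold changes of member arms that turned were not called in any of these settings, and the cause was not tested. With total scaling miR-1 turned at 1 h (0.25), 3 h (-0.14), 6 h (-0.24) and 24 h (-0.035), the 5′ arm of miR-133a to -0.63 at 3 h and -0.23 at 24 h, and miR-206 to -0.19 at 6 h. With the replicate block miR-1 turned to 0.22 at 0.5 h and 0.22 at 1 h and the 5′ arm of miR-133a to -0.16 at 24 h. With the block in DESeq2 these were 0.16, 0.35 and -0.32. Without the filter miR-1 was at -0.34 at 6 h, the 5′ arm of miR-133a at -0.063 at 3 h and -0.060 at 24 h, and miR-206 at -0.28 at 6 h. Matching the first 18 nt gave -0.18 at 6 h and -0.039 at 24 h for miR-1, -0.21 at 24 h for the 5′ arm of miR-133a and -0.17 at 6 h for miR-206.

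With 1 library left out, the range for miR-1 was -1.21 to 2.18 (0.5 h), -1.02 to 2.41 (1 h), -0.60 to 2.82 (3 h), -1.10 to 2.58 (6 h) and -0.62 to 2.77 (24 h), the highest each time without NT-2 and the lowest without NT-1 or, at 6 h, without 6h-2. miR-206 spanned -0.20 (without 3h-2) to 6.15 (without NT-2) at 3 h and -0.64 to 1.56 at 6 h. The 5′ arm of miR-133a spanned -1.53 to 1.62 (0.5 h), -2.15 to 0.42 (1 h), -0.999 to 0.57 (3 h), -5.63 to 2.27 (6 h, the lowest without 6h-1) and -1.20 to 0.68 (24 h).

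The mean of miR-1 was 4198 RPM of accepted reads in place of 9319 RPM of miRNA reads. Per accepted read, an alternative added after seeing the data, the mean of miR-1 after ECS was 2.86 times the untreated level in the first time course and 0.619 times in the second, and 6h-1 turned from 2.37 to 0.820. With 1 library left out the mean of miR-1 was 8635 to 9933 RPM, that of miR-206 50.7 (without 3h-2) to 134 RPM, and that of the 5′ arm of miR-133a 2.75 to 4.41 RPM. Depth limits miR-133 most, with at most 18 reads per library.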
